A study of Mus musculus with 7 samples.

Results

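The tricarboxylic acid (TCA) cycle enzymes examined here were encoded by Cs, Aco1, Idh1, Idh2, Idh3a, Fh1, Mdh1 and Mdh2, and were set beside Acod1, which encodes the enzyme that makes itaconate. These 9 genes were chosen by symbol in the deposited table of 28666 genes. Each symbol belonged to 1 gene ID and all 9 passed the filter on low counts. The name Idh3a stands for 1 subunit of an enzyme with several, and Aco1 and Idh1 encode cytosolic enzymes that catalyze a cycle reaction outside mitochondria.

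RNA of flow-sorted immature and mature bone marrow-derived dendritic cells (BMDCs) was sequenced, with 3 immature and 4 mature libraries. Per the paper, marrow of female C57BL/6 mice aged 6 to 8 weeks was cultured with GM-CSF and IL-4 for 7 days, and the BMDCs then shared a Transwell system with MC38, a colon carcinoma line of mouse origin. The paper's text gives 24 h of the glutamine antagonist DON before the sort. A legend names DMSO or DON at 5 μM. The paper's co-culture arms also differed in glutamine, with less in the medium of the DMSO arm than of the DON arm. The labels give only the stage, so both groups are described by stage alone. The paper gates mature dendritic cells of tumors as CD80+CD86+ and gives no markers for this sort. It says in general that data come from independent biological experiments, but neither it nor the labels tie these libraries to separate animals or cultures, so p values measure the spread between libraries, which may be in part technical. Total counts were 54846746 to 67973086 per library.

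The TCA cycle oxidizes acetyl groups in mitochondria. Citrate synthase joins acetyl-CoA to oxaloacetate, aconitase turns citrate into isocitrate, isocitrate dehydrogenase makes 2-oxoglutarate, fumarase makes malate, and malate dehydrogenase restores oxaloacetate. In myeloid cells activated by microbial products, Acod1 decarboxylates cis-aconitate, an intermediate of the aconitase reaction, to itaconate, which inhibits succinate dehydrogenase. Cytosolic forms of isocitrate and malate dehydrogenase supply NADPH and carry reducing equivalents across the mitochondrial membrane.

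The proximal promoters of Acod1 and of 2 cycle enzymes are shown because Acod1 differed from them in base composition. All were read on the gene's strand from RefSeq on GRCm38.p6, which held 8 of the 9 genes. Position -1 is the base before the RefSeq start. Capitals mark CCAAT on either strand and, between -40 and -20 on the gene's strand, TATAAA.
Acod1, chr14:103046762-103047006, plus strand, positions -250 to -6: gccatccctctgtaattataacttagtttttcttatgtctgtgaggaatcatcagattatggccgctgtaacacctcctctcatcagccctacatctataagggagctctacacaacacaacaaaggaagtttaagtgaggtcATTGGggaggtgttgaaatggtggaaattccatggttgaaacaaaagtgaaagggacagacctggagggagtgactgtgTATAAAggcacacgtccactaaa
Cs, chr10:128337477-128337726, plus strand, positions -250 to -1: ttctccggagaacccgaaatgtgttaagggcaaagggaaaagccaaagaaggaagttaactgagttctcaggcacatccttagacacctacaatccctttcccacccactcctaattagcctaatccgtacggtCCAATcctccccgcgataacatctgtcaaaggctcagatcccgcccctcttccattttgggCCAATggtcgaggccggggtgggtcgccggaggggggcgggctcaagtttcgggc
Idh1, chr1:65186480-65186729, minus strand, positions -250 to -1: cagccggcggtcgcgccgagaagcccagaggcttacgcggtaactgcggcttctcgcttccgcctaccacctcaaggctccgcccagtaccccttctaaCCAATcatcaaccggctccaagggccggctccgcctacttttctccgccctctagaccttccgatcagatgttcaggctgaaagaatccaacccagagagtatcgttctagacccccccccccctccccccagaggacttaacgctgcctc

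For Aco1, Mdh1 and Mdh2 the RefSeq start lay 184, 433 and 169 bases inside the deposited gene. The windows of Aco1 and Mdh2 thus lay mostly, and that of Mdh1 wholly, within the gene. Their values below may not describe the promoter in use. Among the 8 promoters, the 250 bases before the start held TATAAA in that window only for Acod1, at -28 to -23, as did 1.91% of 32851 promoters. Acod1 had 2 CG dinucleotides and 44.4% G and C, against a median of 6 and 52.4% over all promoters. The 7 cycle enzymes with a promoter entry (Cs, Aco1, Idh1, Idh2, Fh1, Mdh1 and Mdh2) had 10 to 23 CG dinucleotides and 52.8% to 67.2% G and C. CCAAT was present in 6 of the 8 promoters, all but those of Aco1 and Mdh2, and in 33.8% of all promoters. Fixed forms of other sites were searched on both strands and matched none of the 8 windows. They were a kappa B form (4.65% of all promoters), an interferon-stimulated response element form (2.98%), an NRF1 core (4.98%) and a sterol response form (0.609%). The antioxidant response core TGACNNNGC (10.2%) and the E-box CACGTG (6.02%) were also among them. Variants of these sites that differ from the form used were not searched. The lack of a match, for Acod1 too, thus covers only those forms.

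The labelled cell type was checked first. Of 11 dendritic cell markers none was at 0 in any library, and their summed CPM (counts scaled to a common library size by TMM factors) was 10430 to 11170 in immature and 14780 to 20650 in mature libraries. Cd74 gave 6419 to 6846 CPM of the immature sums. Itgax fell in mature cells (log2 fold change -0.41, edgeR adjusted p = 0.0124) and H2-Ab1 changed little (0.056, edgeR adjusted p = 0.819). The other listed markers had log2 fold changes of 0.41 to 4.12. The sum of 6 macrophage markers was 1306 to 1386 CPM in immature and 284.3 to 308.7 CPM in mature libraries. Libraries of the mature group were not alike. A list of 16 heart muscle markers summed to 6.64 to 8.17 CPM in immature libraries, 28.6 CPM in mature replicate 1 and 867.8, 1028 and 898.4 CPM in mature replicates 2, 3 and 4. In mature replicate 1 the troponin gene Tnni3 gave 23.98 CPM of that sum. Of the 16 markers, 1 to 2 were over 1 CPM in the immature libraries and 1 in mature replicate 1, against 15 in each of the other mature libraries. Mature replicate 3 also stood apart across all genes, with a median chi-square per gene of 17.7 to 25.6 against the other mature libraries, which differed from each other by 4.26 to 5.27. Results are therefore also given for mature replicate 1 alone against the immature libraries, in a fit where that lone library is assumed to vary like the immature ones. The log2 of the heart muscle sum was also used as a covariate. It was higher in mature replicate 1 than in the immature libraries, largely through Tnni3, so it overlaps with the group. Fits with it cannot separate heart muscle RNA from stage.

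Mature BMDCs had less RNA of Idh1, Mdh2 and Idh3a and more of Mdh1, and smaller falls of Fh1 and Cs passed the test in few of the alternative fits. Idh1, of the cytosolic isocitrate dehydrogenase, had the largest log2 fold change over all 7 libraries, while Idh2 was further from 0 with mature replicate 1 alone and with a heart muscle covariate. Of the 9 genes, 6 passed an adjusted p under 0.05 by edgeR's quasi-likelihood test with Benjamini-Hochberg adjustment. This count was 3 without immature replicate 3. It was 4 with upper-quartile factors, library totals alone, no filter on low counts and both limma fits, where Cs and Fh1 did not pass. The genes Idh1, Mdh2, Idh3a, Fh1 and Cs fell in mature cells, where 22.9% of 17461 tested genes fell. Mdh1 alone rose, where 23.2% of tested genes rose. In either direction 46.1% of tested genes passed. Idh1 alone also met the paper's second criterion, a log2 fold change of 1 or more in size. Both criteria were met by 23.1% of tested genes, and by 9.95% in the lower direction. The median log2 fold change of the 9 genes was -0.31 and that of all tested genes 0.055. The groups did not overlap in CPM for 6 of the 9 genes and for 52.1% of tested genes. In the fit of mature replicate 1 alone, 8 of the 9 passed, where 42.6% of 18329 tested genes did. In that fit Mdh1 rose, where 20.2% of genes rose, and 7 fell, where 22.5% fell. Idh1 and Idh2 then met both criteria, as did 19.3% of genes, or 9.9% in the lower direction. In bulk RNA, fewer cells of a type and less RNA per cell cannot be told apart.

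**Figure D1:**
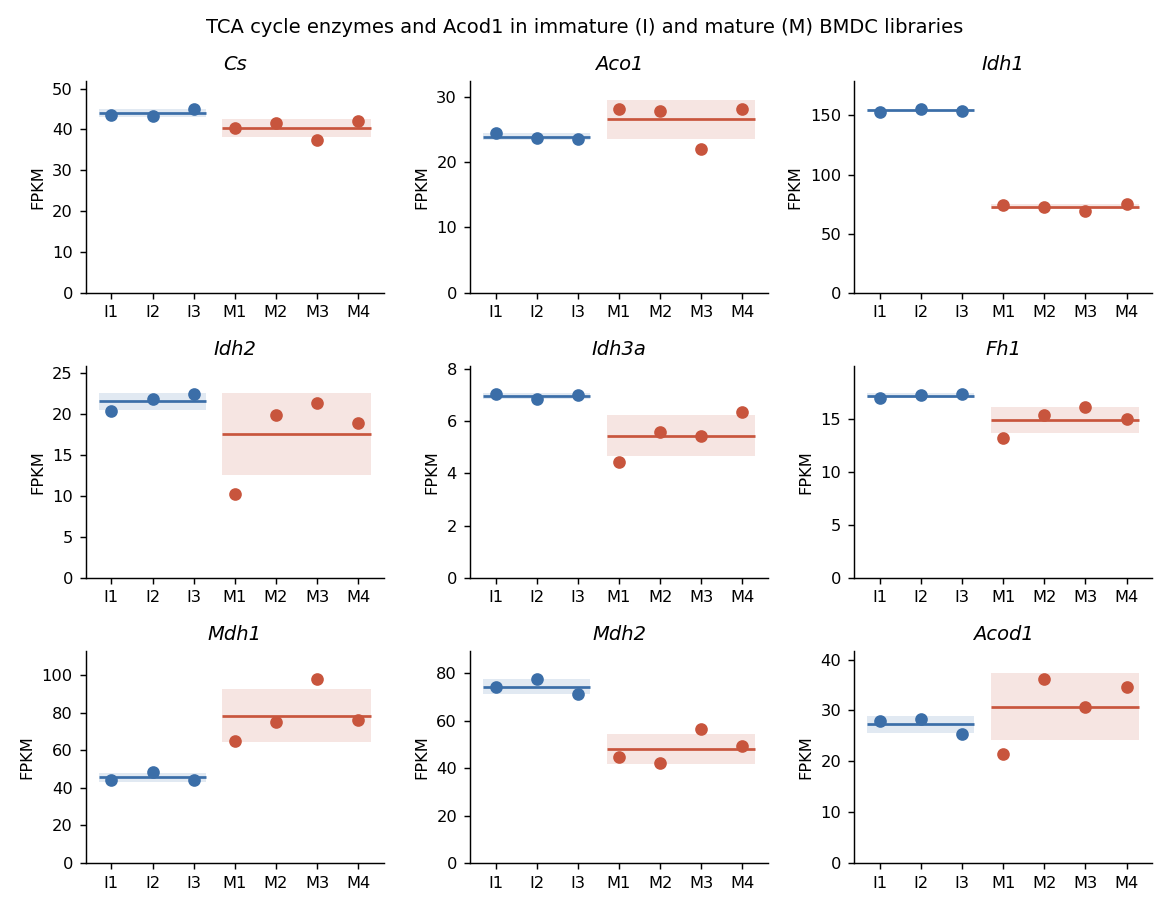
FPKM of the 9 genes in each library, with points for single libraries (I1 to I3 immature, M1 to M4 mature), lines for group means and shaded bands for 1 SD. Idh1 lies at 153.28 to 155.76 FPKM in immature and 69.43 to 74.69 FPKM in mature libraries, while Idh2 and Acod1 are lowest in M1 and overlap between the groups.

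Levels were compared between genes as FPKM, which is scaled by transcript length and library size. In immature cells Idh1 was highest at 154 ± 1.28 FPKM (SD, n = 3), followed by Mdh2 at 74.4 ± 3.14 FPKM. Mdh1 at 45.5 ± 2.41 and Cs at 44.0 ± 0.963 FPKM overlapped each other. Acod1 at 27.2 ± 1.63, Aco1 at 23.9 ± 0.494, Idh2 at 21.6 ± 1.05, Fh1 at 17.2 ± 0.200 and Idh3a at 6.97 ± 0.112 FPKM followed, and the library ranges of these neighbours did not overlap. The order was different at the top in mature cells. Mdh1 came first at 78.5 ± 14.0 FPKM (SD, n = 4) and overlapped Idh1 at 72.8 ± 2.41 FPKM. Mdh2 at 48.1 ± 6.19 and Cs at 40.4 ± 2.17 FPKM overlapped, as did Acod1 at 30.7 ± 6.63 and Aco1 at 26.5 ± 2.99 FPKM, and Idh2 at 17.6 ± 5.04 and Fh1 at 14.9 ± 1.25 FPKM. Idh3a stayed lowest at 5.45 ± 0.781 FPKM.

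Citrate synthase, encoded by Cs (ENSMUSG00000005683, chromosome 10 from 128337734 to 128362479), catalyzes the entry of acetyl-CoA. Cs had 284.4, 279.6 and 304.7 CPM in immature replicates 1 to 3 and 242.2, 244.2, 243.9 and 255.1 CPM in mature replicates 1 to 4. Every mature library lay below every immature one, by little. Cs fell by 0.23 on the log2 scale (standard error 0.070, edgeR adjusted p = 0.0248). The call was lost when immature replicate 1, 2 or 3 or mature replicate 1 or 2 was left out, with an adjusted p of 0.054 to 0.116, while the log2 fold change stayed between -0.26 and -0.20. With mature replicate 1 alone it was -0.23 (edgeR adjusted p = 0.0359).

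Aconitase has a cytosolic form, encoded by Aco1 (ENSMUSG00000028405, chromosome 4 from 40143081 to 40198338), which also acts as an iron regulatory protein when it lacks its iron-sulfur cluster. Aco1 had 124.1, 119.3 and 123.6 CPM in immature and 131.0, 126.8, 112.3 and 132.8 CPM in mature libraries. Mature replicate 3 lay below all immature libraries and the other mature libraries above them. The log2 fold change was 0.040 (95% interval -0.15 to 0.23, edgeR adjusted p = 0.721), and 0.12 (edgeR adjusted p = 0.195) with mature replicate 1 alone. Without mature replicate 3 it was 0.11 (edgeR adjusted p = 0.0503).

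Isocitrate dehydrogenase is made in cytosolic, mitochondrial NADP-dependent and mitochondrial NAD-dependent forms. Idh1 (ENSMUSG00000025950, chromosome 1 from 65158616 to 65186500) encodes the cytosolic NADP-dependent enzyme. It had 479.5, 482.2 and 498.9 CPM in immature and 213.7, 204.8, 217.8 and 216.9 CPM in mature libraries. The groups lay far apart with little spread inside either. Idh1 fell 2.28-fold, or by 1.19 on the log2 scale (standard error 0.068, edgeR adjusted p = 2.2e-06). It changed by -1.16 with mature replicate 1 alone (edgeR adjusted p = 3.8e-06) and between -1.21 and -1.16 with any library left out.

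Idh2 (ENSMUSG00000030541, chromosome 7 from 80094846 to 80115392) encodes the mitochondrial NADP-dependent enzyme. It had 59.8, 63.1 and 68.1 CPM in immature libraries, 27.5 CPM in mature replicate 1 and 52.3, 62.8 and 51.5 CPM in mature replicates 2, 3 and 4. Only mature replicate 3 fell within the immature range, and mature replicate 1 was lowest by far. The log2 fold change over all libraries was -0.39 (95% interval -0.93 to 0.14, edgeR adjusted p = 0.208). With mature replicate 1 alone it was -1.19 (standard error 0.10, edgeR adjusted p = 3.7e-05), past both criteria, and without mature replicate 1 it was -0.20 (edgeR adjusted p = 0.184). The heart muscle markers were high in the libraries with more Idh2 RNA among the mature group. With their log2 summed CPM as a covariate, which overlaps with the group, the log2 fold change of Idh2 was -1.60 (edgeR adjusted p = 0.00129).

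Idh3a (ENSMUSG00000032279, chromosome 9 from 54586334 to 54604661) encodes the catalytic alpha subunit of the NAD-dependent enzyme of the cycle. It had 40.4, 38.8 and 41.6 CPM in immature and 23.4, 28.8, 31.3 and 33.7 CPM in mature libraries. Every mature library was below every immature one, and mature replicate 1 was lowest. Idh3a fell by 0.46 on the log2 scale (standard error 0.13, edgeR adjusted p = 0.0165). In the fit of mature replicate 1 alone it fell by 0.76 (edgeR adjusted p = 0.00045), and without immature replicate 3 the adjusted p was 0.0616.

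Fumarase, encoded by Fh1 (ENSMUSG00000026526, chromosome 1 from 175600374 to 175625635), hydrates fumarate to malate in mitochondria and cytosol. Fh1 had 65.1, 65.4 and 68.9 CPM in immature and 46.3, 53.1, 61.8 and 53.2 CPM in mature libraries. Again the groups did not overlap and mature replicate 1 was lowest. Fh1 fell by 0.31 on the log2 scale (standard error 0.10, edgeR adjusted p = 0.0363). The adjusted p was 0.072 to 0.122 when any library but mature replicate 3 was left out. It fell by 0.50 (edgeR adjusted p = 0.00154) with mature replicate 1 alone.

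The malate dehydrogenase genes moved in opposite directions. Mdh1 (ENSMUSG00000020321, chromosome 11 from 21556692 to 21572367), of the cytosolic enzyme of the malate-aspartate shuttle, had 132.6, 143.7 and 137.4 CPM in immature and 178.5, 202.8, 295.3 and 212.4 CPM in mature libraries. All mature libraries were above the immature ones, and mature replicate 3 was highest. Mdh1 rose 1.61-fold, 0.69 on the log2 scale (standard error 0.16, edgeR adjusted p = 0.00771). It was 0.40 (edgeR adjusted p = 0.00268) with mature replicate 1 alone, and 0.55 (edgeR adjusted p = 0.0001) without mature replicate 3. Among mature libraries Mdh1 was lowest in replicate 1, where the heart muscle markers were at 28.6 CPM against 867.8 to 1028 CPM. With these markers as a covariate, which overlaps with the group, the log2 fold change was 0.20 and the call was lost (edgeR adjusted p = 0.66).

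Mdh2 (ENSMUSG00000019179, chromosome 5 from 135778480 to 135790391), of the mitochondrial enzyme that closes the cycle, had 298.6, 309.1 and 297.3 CPM in immature and 165.7, 152.3, 227.1 and 183.5 CPM in mature libraries. It fell 1.66-fold, or by 0.73 on the log2 scale (standard error 0.13, edgeR adjusted p = 0.00191). In the fit of mature replicate 1 alone the log2 fold change was -0.84 (edgeR adjusted p = 2.9e-05). Mature replicate 3 was the highest of the mature libraries for this gene too, yet below all immature ones.

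**Figure D2:**
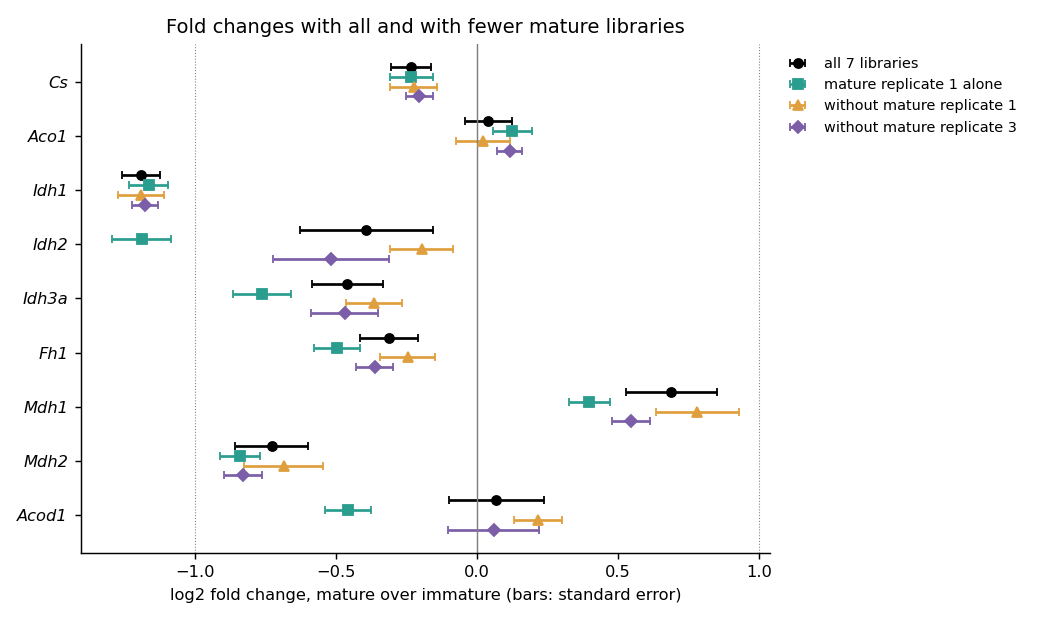
Log2 fold changes of the 9 genes, mature over immature, with bars for the standard error, from all 7 libraries and from fits with fewer mature libraries; dotted lines mark -1 and 1. Idh1 keeps its place near -1.19 in all 4 fits, Idh2 moves from -0.39 to -1.19 and Acod1 from 0.069 to -0.46 when mature replicate 1 stands alone.

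Acod1 (ENSMUSG00000022126, chromosome 14 from 103046977 to 103056573) was expressed in every library, at 21.39 to 36.19 FPKM. Its FPKM was below that of Cs in every library, and above that of Aco1 in all but mature replicate 1. It had 82.7, 83.2 and 77.8 CPM in immature libraries, 58.2 CPM in mature replicate 1 and 96.4, 91.1 and 95.1 CPM in mature replicates 2, 3 and 4. Mature replicate 1 was below and the other mature libraries were above every immature library. The log2 fold change was 0.069 (95% interval -0.31 to 0.45, edgeR adjusted p = 0.768). In the fit of mature replicate 1 alone Acod1 fell by 0.46 on the log2 scale (standard error 0.082, edgeR adjusted p = 0.00226), and without mature replicate 1 the log2 fold change was 0.22 (edgeR adjusted p = 0.0729). The direction thus rested on which mature libraries were used, and the heart muscle markers, at 28.6 CPM against 867.8 to 1028 CPM, separated the same libraries. With the markers as a covariate, which overlaps with the group, the log2 fold change was -0.73 (edgeR adjusted p = 0.0182).

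**Figure D3:**
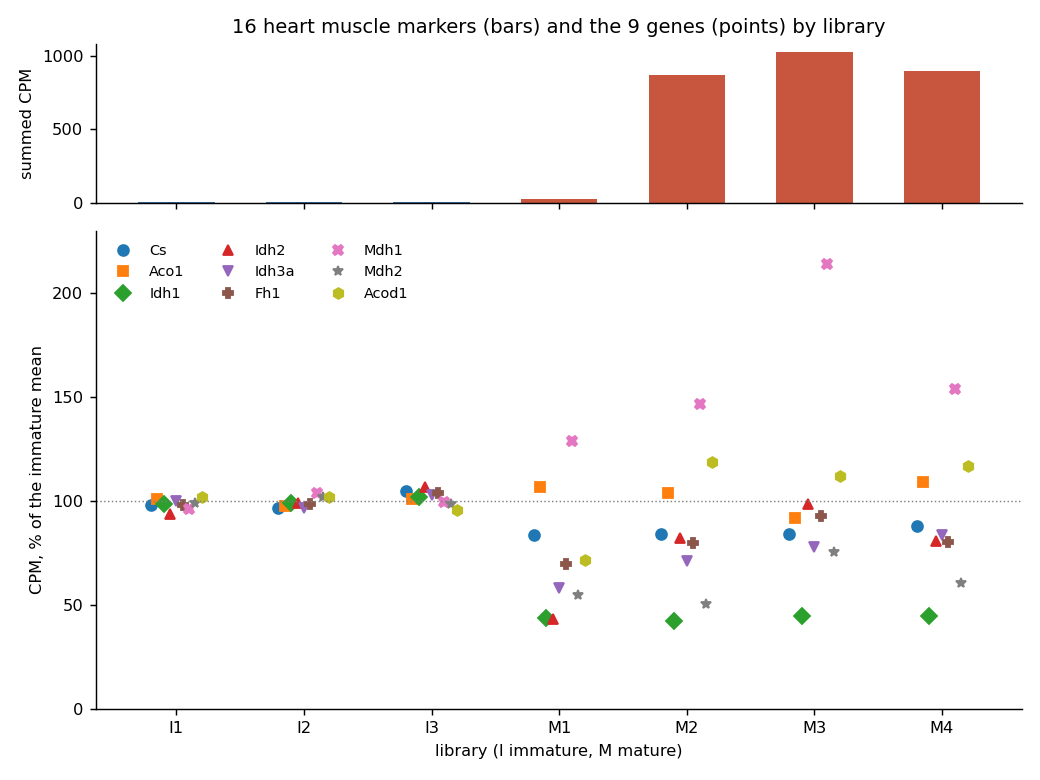
Summed CPM of 16 heart muscle markers (bars, top) and CPM of each of the 9 genes as a percent of its immature mean (points, bottom) by library. In mature replicate 1 (M1) Idh2 stands at 43.1% and Acod1 at 71.6%, and in M2, M3 and M4 Idh2 stands at 80.9% to 98.6% and Acod1 at 112% to 119%, while Idh1 stays at 42.1% to 44.7% in all 4.

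The 5 genes whose log2 CPM followed Acod1 most closely over the 7 libraries, among 6666 others with a mean FPKM of at least 5, were Ldhb (Pearson r 0.98), Acsl1 (0.98), Itpk1 (0.97), Hadhb (0.93) and Cox6a2 (0.92). Ldhb encodes the heart-type subunit of lactate dehydrogenase and Cox6a2 the muscle form of a cytochrome c oxidase subunit. Acsl1 and Hadhb encode enzymes of fatty acid activation and oxidation. Ldhb had 9.60 to 11.03 CPM in immature libraries, 1.97 CPM in mature replicate 1 and 19.96 to 25.4 CPM in the other mature libraries. Cox6a2 had 9.99 to 11.04 CPM in immature libraries, 1.99 CPM in mature replicate 1 and 11.2 to 13.1 CPM in the others. The points share the libraries with heart muscle markers, so these correlations are descriptions. The 5 genes most like Cs were Yaf2, Armc1, Rnf10, Ppp1r18 and Fbxl14 (r 0.99 for each), whose log2 fold changes were -0.66 to -0.31.

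The cytosolic and mitochondrial forms of malate and isocitrate dehydrogenase were set against each other within a library as FPKM ratios. The ratio of Mdh1 to Mdh2 was 0.594, 0.622 and 0.618 in immature and 1.44, 1.78, 1.74 and 1.55 in mature libraries. The cytosolic form thus went from the lower to the higher level of the pair in all 4 mature libraries. The mean log2 ratio differed by 1.41 (two-sided exact permutation test, p = 0.0571, 0.0857 adjusted over the 3 ratios tested, of which 1 is not reported here), where 0.0571 is the smallest p that 3 libraries against 4 allow. The difference was 1.24 for mature replicate 1 alone.

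The ratio of Idh1 to Idh2 was 7.50, 7.14 and 6.84 in immature libraries, 7.28 in mature replicate 1 and 3.66, 3.24 and 3.94 in mature replicates 2, 3 and 4. Its mean log2 difference was -0.74 (two-sided exact permutation test, p = 0.171, adjusted p = 0.171) and 0.025 with mature replicate 1 alone.

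**Figure D4:**
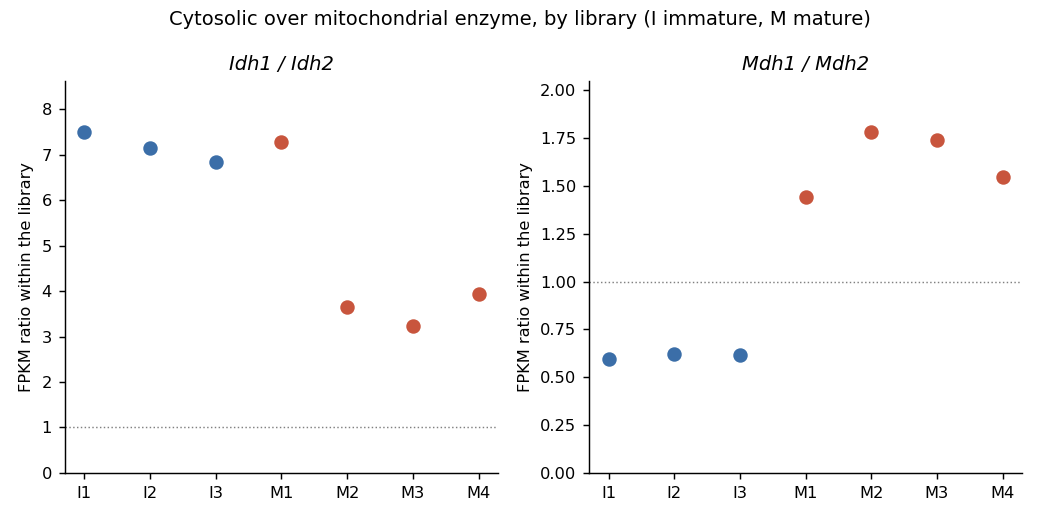
FPKM of the cytosolic enzyme's gene over that of the mitochondrial enzyme's gene within each library (I1 to I3 immature, M1 to M4 mature), with a dotted line at equal levels where it is in range. Mdh1 over Mdh2 crosses that line between the groups, and Idh1 over Idh2 in M1 (7.28) sits among the immature libraries.

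In mature replicate 3 the genes with shorter transcripts tended to stand higher against the other mature libraries. Its log2 ratio to the mean of mature replicates 1, 2 and 4 was -0.21 for Aco1, whose longest coding transcript in GENCODE M21 has 3832 bases, and -0.019 for Cs with 2926 bases. It was 0.52 for Idh2 with 1745 bases, 0.44 for Mdh2 with 1456 bases and 0.58 for Mdh1 with 2122 bases. Idh1 with 2302 bases was at 0.040, below Fh1 with 2636 bases at 0.28. The mean includes mature replicate 1, where Idh2 was at 27.5 CPM against 52.3 and 51.5 CPM in mature replicates 2 and 4. Over the 9 genes the Spearman rho of this log2 ratio with length was -0.77, a description of 1 library. Without mature replicate 3 the fall of Mdh2 was 0.83 and that of Idh2 0.52 on the log2 scale (edgeR adjusted p = 5.6e-06 and 0.0562).

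The remaining subunits of the cycle showed falls and no rise. Of the 13 tested, 7 fell and none rose, where 22.9% of tested genes fell. The median log2 fold change was -0.36, with a range of -0.81 to 0.045, and none met both criteria. Among the genes that fell were Sdha, Sdhb and Sdhc of succinate dehydrogenase and Ogdh, Dlst and Dld of the 2-oxoglutarate dehydrogenase complex. Sdhc, a membrane anchor, had 114.0 to 121.8 CPM in immature and 57.4, 64.5, 86.3 and 61.5 CPM in mature libraries (log2 fold change -0.81, standard error 0.14, edgeR adjusted p = 0.0013). The genes that did not pass were those of the succinyl-CoA synthetase subunits Suclg1, Suclg2 and Sucla2, the NAD-dependent isocitrate dehydrogenase subunits Idh3b and Idh3g, and Sdhd, at log2 fold changes of -0.17 to 0.045. In the fit of mature replicate 1 alone 10 of the 13 fell, where 22.5% of tested genes fell, and Sdhc met both criteria at -1.02, as did 9.9% of genes in the lower direction.

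Genes of pyruvate entry changed in both directions. Of 13 tested, 9 fell and 3 rose by adjusted p, where 22.9% and 23.2% of tested genes did, and 4 met both criteria, as did 23.1% of tested genes. The genes that rose were Pdk2, Pdk4 and Pcx. Pcx, of pyruvate carboxylase, had a log2 fold change of 0.71 (edgeR adjusted p = 0.0466), and 0.44 with mature replicate 1 alone. It had 4.50 to 5.18 CPM in immature and 6.38, 11.5, 5.50 and 7.88 CPM in mature libraries. Pcx was thus highest in mature replicate 2, which also held kidney markers (206.6 CPM for a list of 8), and their part was not tested. The genes Pdha1, Pdhb, Dlat and Pdhx, of the pyruvate dehydrogenase complex, fell by 0.34 to 0.67 on the log2 scale. Pdk1, an inhibitory kinase of that complex, fell from 100.4 to 103.7 CPM in immature to 42.5 to 54.5 CPM in mature libraries (log2 fold change -1.04, edgeR adjusted p = 3.9e-05). Pdp1, the phosphatase that reactivates the complex, fell from 20.6 to 26.9 CPM to 7.22 to 9.12 CPM (log2 fold change -1.52, edgeR adjusted p = 2.1e-05). Pdk2, another inhibitory kinase, had 10.9 to 13.9 CPM in immature libraries, 19.8 CPM in mature replicate 1 and 26.4 to 28.9 CPM in the others (log2 fold change 1.06, edgeR adjusted p = 0.000568). With mature replicate 1 alone its log2 fold change was 0.71 (edgeR adjusted p = 0.00593). Pdk4, a kinase abundant in heart and skeletal muscle, stayed at 0 to 0.180 CPM across immature libraries, with 0.212 CPM in mature replicate 1 and 35.4, 41.0 and 37.2 CPM in mature replicates 2, 3 and 4. It passed over all libraries (edgeR adjusted p = 0.00478) and not with mature replicate 1 alone (edgeR adjusted p = 0.743).

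Genes that move citrate, malate and aspartate carbon out of or into mitochondria split almost evenly. Of 13 tested, 6 rose and 5 fell, where 23.2% and 22.9% of tested genes did. Acly, which encodes the cytosolic enzyme that splits citrate to acetyl-CoA, had 457.8 to 530.4 CPM in immature and 220.5, 218.7, 169.1 and 236.6 CPM in mature libraries (log2 fold change -1.22, standard error 0.12, edgeR adjusted p = 5.3e-05). Slc25a10, the dicarboxylate carrier that exports malate and succinate, had 32.0 to 32.4 CPM in immature and 61.0, 61.8, 74.6 and 66.5 CPM in mature libraries (log2 fold change 1.03, standard error 0.094, edgeR adjusted p = 3.3e-05). Me1, the cytosolic malic enzyme, had 2.40 to 4.54 CPM in immature and 7.20, 14.6, 6.64 and 7.45 CPM in mature libraries (log2 fold change 1.30, edgeR adjusted p = 0.013). Mature replicate 2, the highest for Me1, also held kidney markers, at 206.6 CPM for a list of 8 against 0 to 0.955 CPM in the other libraries, and their part was not tested. Me1 was at 1.01 (edgeR adjusted p = 0.0364) with mature replicate 1 alone. Slc25a10 was then at 0.95, under the fold criterion.

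Of 7 genes listed for itaconate and succinate handling, 5 were tested, and 2 rose and 2 fell, where 23.2% and 22.9% of tested genes did. The list includes Mcee and Mmut, whose enzymes act on methylmalonyl-CoA and not on itaconate. Mmut was among the genes that fell (log2 fold change -0.63, edgeR adjusted p = 0.0104), and Mcee did not pass (edgeR adjusted p = 0.922). Sucnr1 and Slc13a5 had too few counts. Auh, whose enzyme hydrates itaconyl-CoA besides its role in leucine breakdown, rose from 33.7 to 36.9 CPM in immature to 90.7 to 103.3 CPM in mature libraries (log2 fold change 1.45, standard error 0.084, edgeR adjusted p = 2.1e-06). Clybl, the lyase of the next step of itaconate breakdown, fell from 15.7 to 16.2 CPM to 4.79 to 8.62 CPM (log2 fold change -1.28, standard error 0.19, edgeR adjusted p = 0.000545). With mature replicate 1 alone Auh was at 1.51 and Clybl at -1.71. Slc13a3, a plasma membrane dicarboxylate transporter abundant in kidney, had 0.403 to 0.413 CPM in immature and 0.743, 6.05, 2.12 and 1.84 CPM in mature libraries, highest in the library with kidney markers. Its log2 fold change was 2.71 (edgeR adjusted p = 0.0101), and 0.89 (edgeR adjusted p = 0.297) with mature replicate 1 alone.

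**Figure D5:**
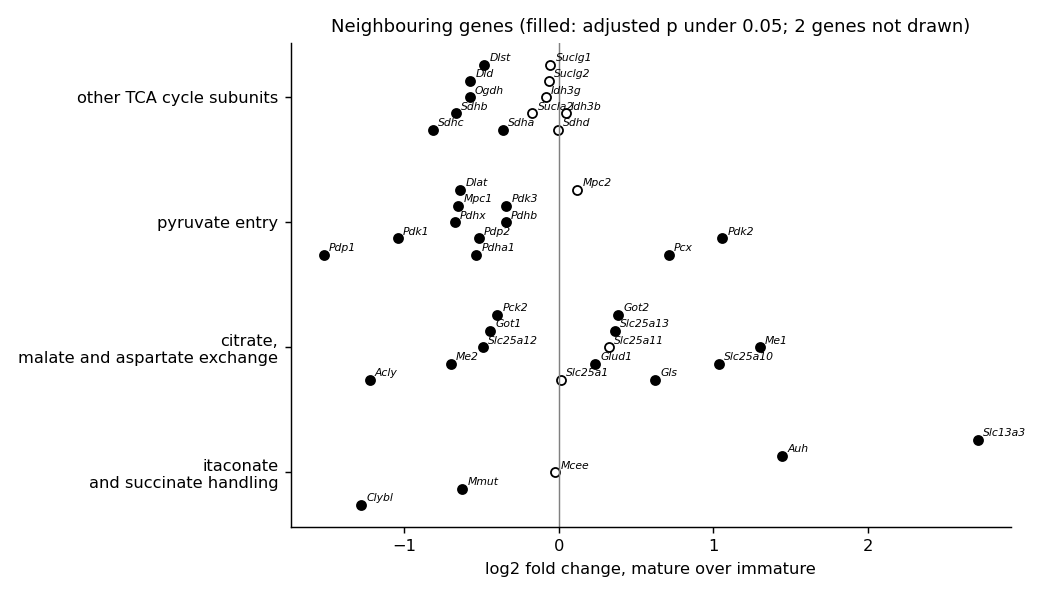
Log2 fold change, mature over immature, of tested genes in 4 lists around the cycle, with 1 point per gene and 2 genes not drawn, filled where the adjusted p is under 0.05; the vertical position within a list has no meaning. The other TCA cycle subunits lie between -0.81 and 0.045, while the exchange genes spread from -1.22 for Acly to 1.30 for Me1.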

How the data were processed

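RNA-seq of 3 immature and 4 mature BMDC libraries was analysed from 1 table. For each gene and library the authors deposited a count, as a whole number, and an FPKM value (fragments scaled by transcript length and library size). The submitters' processing notes list cutadapt 1.9, HISAT2 2.2.1, StringTie 2.1.6, DESeq2 and edgeR without roles, and mm9. The table's coordinates match GRCm38, since 25805 of 28588 gene IDs shared with GENCODE M21, and 7 of the 9 members, have identical positions. The step from reads to counts is not given in the sources used here.

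Counts were fitted in R 4.3.3 with edgeR 4.0.16 (filter on low counts, TMM, quasi-likelihood test, Benjamini-Hochberg over 17461 genes). A standard error is the log2 fold change divided by the square root of F, and 95% intervals use the test's degrees of freedom. FPKM ratios were tested by exact permutation in Python 3.11.15 with scipy 1.17.1. Depth was 54846746 to 67973086 counts per library.

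The members and lists were chosen with earlier results of these data known, and TATAAA and CCAAT after the promoters were seen. The text names all members, genes of each list past both criteria, the 5 closest in pattern to Acod1 and Cs, and, chosen after values were seen, Sdhc, the pyruvate dehydrogenase subunits and the names behind small counts. A gene of the lists counted here is not reported by name or value. Alternatives were DESeq2 1.42.0, limma 3.58.1 on log2(FPKM + 1) and log2(FPKM + 0.1), other scalings, no filter, a replicate block, a heart muscle covariate and omitted libraries. Replicates of a group differed by more than sampling noise (median chi-square per gene 3.83 to 25.6 against 0.455).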

Additional observations from a re-analysis of the deposited data

Results flagged for a closer look

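Among 24 quantities examined across the mature group, 5 had a single library well separated from the remaining 3. About 1.2 such cases arise by chance, and several of these quantities share libraries. The separation is given as the distance to the closest library as a share of the whole range. It was 0.863 for the CPM of Acod1, 0.863 for that of Pdk4 and 0.84 for the heart muscle marker sum, and mature replicate 1 was the low library in all 3. It was 0.845 for the CPM of Cs, where mature replicate 4 was highest at 255.1 CPM, and 0.897 for Me1, where mature replicate 2 was highest at 14.6 CPM.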

How the results depend on the processing

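Over 16 alternatives, Idh1 (log2 fold change -1.21 to -1.07), Mdh2 (-0.95 to -0.62), Aco1, Mdh1, Idh2, Idh3a, Fh1 and Cs kept their direction. The calls on Idh1 and Mdh2 held in all 16. Those on Cs and Fh1 were each lost in 12, with adjusted p up to 0.270 and 0.146. Acod1 turned to -0.021 with the replicate block, -0.46 with mature replicate 1 alone and -0.73 with the heart muscle covariate. With that covariate Mdh1 was at 0.20 (edgeR adjusted p = 0.66) and Idh2 at -1.60 (edgeR adjusted p = 0.00129). The covariate overlaps with the group, so its fits do not separate heart muscle RNA from stage. The Idh1 to Idh2 ratio turned to 0.025 with mature replicate 1 alone. The members past both criteria went from 1 to 2 with mature replicate 1 alone and with the covariate. Those with an adjusted p under 0.05 went from 6 to 3 without immature replicate 3, and ranged from 3 to 6 with a library left out. Past both criteria, the other TCA cycle subunits went from 0 to 1 with mature replicate 1 alone and 3 with the covariate, pyruvate entry from 4 to 2 with either and with limma on log2(FPKM + 1), and the exchange list from 3 to 1 with the covariate. Upper-quartile factors, library totals alone and no filter moved the median log2 fold change of all genes by 0.11, 0.10 and 0.12. Of all genes, 1768 met both criteria with limma on log2(FPKM + 1), 2561 with log2(FPKM + 0.1) and 4037 in edgeR, and with the covariate 3736 passed the adjusted p against 8053. Between immature and mature libraries the correlation of deviations was -0.001 to 0.029 for equal replicate numbers and -0.048 to 0.036 for unequal ones. These values cannot decide on pairing, since the mature libraries also differ in heart muscle and kidney markers. Not every library correlated best with its own number. The block left 4 members with an adjusted p under 0.05 against 6, and 6454 of all genes against 8053. Sucnr1 and Slc13a5 had too few counts to be tested. The causes of these moves were not tested.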
